A study of Ovis aries with 15 samples.

Results

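Triacylglycerol assembly enzymes and PNPLA3 were followed across the transition of the ovine mammary gland from late pregnancy to lactation. Members were taken by gene symbol, as the rows of the deposited expression table that carry 1 of 10 listed names, which is 10 of its 24691 features. They are GPD1 and GPD1L (supply of glycerol 3-phosphate), GPAM, AGPAT6 and AGPAT1 (acyltransferases), LPIN1 and LPIN2 (lipins), DGAT1 and DGAT2 (the final acylation) and PNPLA3, a patatin-like lipid enzyme. The first 9 were listed for their function, though with earlier results of these data known. PNPLA3 was selected on the large rise of its exon reads in these same libraries. The values of PNPLA3 below are therefore a description and carry no test of the states.

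RNA-seq libraries were made from needle biopsies of mammary tissue of 2-year-old Romney ewes carrying their first lambs, 9 libraries at day 135 of gestation (late pregnancy) and 6 at day 15 post partum (lactation). Each library holds pooled RNA, of 3 ewes per pool in late pregnancy and, by the design text, of 2 in lactation, whereas the study's methods give the same number of ewes for both states. The ewes' own dams had been fed ad libitum (HM), at maintenance (MM) or below maintenance (LM) in early gestation and at maintenance after that, and each of these 3 dam groups has 3 late pregnancy and 2 lactation pools. The ewes sampled in lactation had also been sampled in late pregnancy, but which ewes are in which pool is not given in the sources used here, so the libraries of the states were treated as independent. The whole biopsy was sequenced, without sorting of cells, and libraries held 6471237 to 24001031 reads on exons.

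Milk fat is made in the secretory epithelial cell, and almost all of it is triacylglycerol. Its assembly starts with glycerol 3-phosphate, to which acyltransferases add fatty acids in turn, first to lysophosphatidate and then to phosphatidate. Lipins remove the phosphate to give diacylglycerol, and diacylglycerol acyltransferases add the last fatty acid. Adipocytes, which are also present in a mammary biopsy, use the same pathway.

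Of the 9 genes listed for function 7 were higher in lactation, 1 (LPIN2) was lower and 1 (DGAT2) was not called, by the quasi-likelihood test of edgeR at an adjusted p under 0.05. The background is high, since 68.4% of the 13345 genes tested were called, 33.1% higher and 35.2% lower in lactation. Of the 9, 5 were called and higher by over 2-fold (GPAM, AGPAT6, AGPAT1, LPIN1 and DGAT1), against 9.13% of all genes tested. The median log2 change of the 9 genes was 1.09, beside −0.03 for all genes tested. For 7 of 9 every lactation library was above all those of late pregnancy, and 40.2% of all genes tested had states without overlap in either direction. Levels are given in CPM, which is exon reads for every 1000000 reads of the library after TMM scaling, and in a bulk biopsy fewer cells of a type and less RNA per cell cannot be told apart.

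These directions rest on the scaling. The 7 major milk protein genes took a median of 17.5% of the exon reads in late pregnancy and 75.3% in lactation, and with the library size alone as the scale the median log2 change of all genes tested was −1.94 in place of −0.03. On that scale 2 of the 9 (GPAM and LPIN1) were called higher and 6 lower (GPD1, GPD1L, AGPAT1, LPIN2, DGAT1 and DGAT2). The shares of all genes called higher or lower on that scale are not given here, so these counts have no background beside them. Relative to the median of all genes on that scale, 8 of the 9 were above it by 0.45 to 6.77, and LPIN2 was below it by −0.20. Ratios between members, given below for each step, do not depend on how library size is scaled.

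Markers of the cells in the biopsy were read beside these changes. Of 6 luminal epithelial markers 4 were called higher and 0 lower, with a summed level of 1417 to 1736 CPM in late pregnancy and 2290 to 2551 CPM in lactation. Most of this sum was KRT19, at a mean of 622.3 and 947.5 CPM, and the transcription factor ELF5, at 629.0 and 1100 CPM. The summed level therefore mostly follows these genes. KRT18 (log2 change 0.43) and EPCAM (0.30) were called with smaller changes, while KRT8 (0.13) and CDH1 (−0.11) were not called. Of 10 adipocyte markers 5 were tested and 0 called by edgeR or DESeq2 (0 also at an unadjusted p under 0.05 in edgeR), with a sum of 248.8 to 452.1 CPM in late pregnancy and 327.1 to 411.6 CPM in lactation, most of it FABP4, which endothelial cells also make. Among the defining adipocyte genes ADIPOQ averaged 10.1 and 7.53 CPM in the 2 states, while PLIN1, CIDEC and LEP were each under 1 CPM in both and had 0 reads in at least 1 lactation library. Of the markers of other cells, 3 of 6 tested for myoepithelial cells were higher and 2 lower, 3 of 4 for fibroblasts and 3 of 3 for endothelial cells were lower, and for leukocytes 1 of 6 was higher and 4 were lower. Among all genes tested 33.1% were called higher and 35.2% lower. These marker calls rest on TMM scaling, like those of the members. The part of these markers in the changes of the members between the states was not tested.

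**Figure D1:**
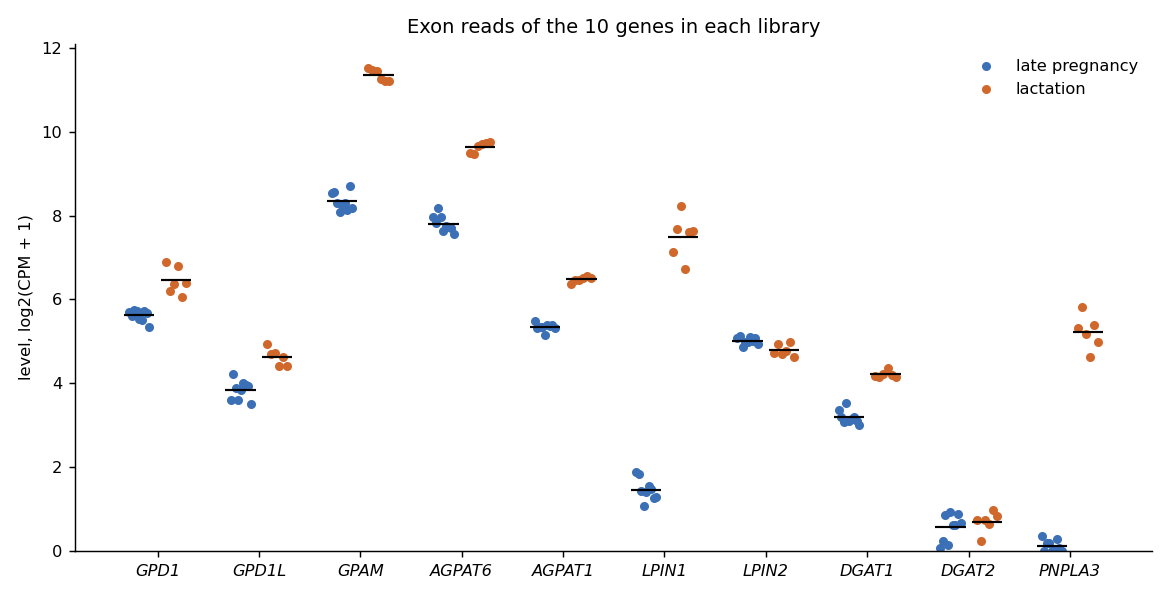
Level of each of the 10 genes as log2(CPM + 1) on the vertical axis, 1 point per library (9 late pregnancy in blue, 6 lactation in orange), with the mean as a bar and TMM scaling. The states are apart for LPIN1 and PNPLA3 by several log2 units, closer but without overlap for GPD1, GPD1L, GPAM, AGPAT6, AGPAT1 and DGAT1, and they overlap for LPIN2 and DGAT2. With library size only, GPD1, GPD1L, AGPAT1, DGAT1 and DGAT2 would lie lower in lactation, and AGPAT6 would be about level (log2 change −0.07).

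Both genes of glycerol 3-phosphate supply were about 1.8-fold higher in lactation. GPD1, the cytosolic dehydrogenase that makes glycerol 3-phosphate from dihydroxyacetone phosphate, ranged from 39.6 through a median of 50.5 to 52.8 CPM in late pregnancy and from 66.0 through 82.7 to 117.1 CPM in lactation. All 6 lactation libraries were above all 9 of late pregnancy, and the spread grew, from an SD of 4.48 around a mean of 48.3 CPM (n = 9) to 20.7 around 88.6 CPM (n = 6). Its log2 change was 0.87 ± 0.10 (SE, edgeR adjusted p = 4.2e-07), and −1.03 with library size only. GPD1L, a related dehydrogenase, ranged from 10.4 through 13.7 to 17.6 CPM in late pregnancy and from 20.2 through 24.5 to 29.7 CPM in lactation, again without overlap. For GPD1L the log2 change was 0.84 ± 0.11 (SE, edgeR adjusted p = 1.3e-06), and −1.07 with library size only.

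The balance between GPD1 and GPD1L differed between the states by less than the spread of the libraries. Per length of exon, in RPKM, the log2 ratio of GPD1L to GPD1 was −1.41 ± 0.26 (SD, n = 9) in late pregnancy and −1.42 ± 0.37 (SD, n = 6) in lactation. The difference was −0.01 (exact two-sided permutation test p = 0.968, adjusted over 4 ratios p = 0.968). GPD1 made up 72.6% of the RPKM of the pair in each state.

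The genes of the committed step rose more, and unequally. GPAM, the mitochondrial glycerol-3-phosphate acyltransferase, ranged from 271.5 through a median of 313.5 to 413.0 CPM in late pregnancy and from 2367 through 2615 to 2930 CPM in lactation, so that the lowest lactation library was several times above the highest of late pregnancy. Its log2 change was 3.01 ± 0.09 (SE, edgeR adjusted p = 8.0e-16), an 8.06-fold rise, and it stayed higher, by 1.11, with library size only. AGPAT6, the microsomal enzyme of the same step (also called GPAT4), ranged from 188.2 through 214.3 to 287.2 CPM in late pregnancy and from 707.0 through 821.7 to 856.3 CPM in lactation, without overlap. The log2 change of AGPAT6 was 1.82 ± 0.08 (SE, edgeR adjusted p = 1.4e-13), and −0.07 (adjusted p = 0.32) with library size only.

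GPAM gained on AGPAT6, which no scaling of library size can alter. The log2 ratio of GPAM to AGPAT6 in RPKM went from 0.39 ± 0.28 (SD, n = 9) to 1.58 ± 0.26 (SD, n = 6), a difference of 1.19 (2.04 in the authors' quantile-normalized RPKM). Late pregnancy libraries ran from −0.01 to 0.86 and lactation libraries from 1.33 to 1.88, and the exact two-sided permutation p was 0.0002, the smallest this design allows (adjusted over 4 ratios p = 0.0004). In shares of the RPKM of 4 genes of the step, GPAM went from 56.6% to 74.8% and AGPAT6 from 43.2% to 25.2%. The other genes, AGPAT9 (also called GPAT3) and GPAT2 had at most 0.183% each in any library. These shares within a step were chosen after the values were seen and carry no test.

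AGPAT1 adds the next fatty acid, turning lysophosphatidate into phosphatidate. It was among the steadiest members, at 34.8 through a median of 39.7 to 44.0 CPM in late pregnancy and 82.0 through 89.0 to 92.8 CPM in lactation. The states did not overlap, and within a state the coefficient of variation was 6.15% and 4.32%. AGPAT1 had a log2 change of 1.15 ± 0.05 (SE, edgeR adjusted p = 8.6e-14), and −0.75 with library size only. AGPAT1 and AGPAT4, which has the same activity, held most of the RPKM of the 5 AGPAT genes of this step, AGPAT1 at 43.1% ± 2.89 (SD, n = 9) and 49.0% ± 4.31 (SD, n = 6) and AGPAT4 at 38.4% ± 3.27 and 39.8% ± 4.64. AGPAT2, the gene best known from adipose tissue, held 2.76% and 1.23%. Of the reads within AGPAT4, 74.2% lay off its annotated exons in each state, against 2.1% and 0.87% for AGPAT1. The share of AGPAT4 per length is therefore uncertain.

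Among the lipins LPIN1 rose steeply, while LPIN2 changed little with TMM scaling. LPIN1, a phosphatidate phosphatase that is also known as a transcriptional coactivator, had 1.09 through a median of 1.70 to 2.68 CPM in late pregnancy, and 104.3 through 195.0 to 299.1 CPM in lactation. In reads this was 22 to 58 per late pregnancy library and 548 to 2227 per lactation library. Its log2 change was 6.74 ± 0.21 (SE, edgeR adjusted p = 8.0e-16), which is 107-fold, and 4.83 with library size only. Its change ranked 22 from the top of the 13345 genes tested. LPIN2, its paralogue, went the other way by a little, from 28.1 through 31.4 to 34.0 CPM to 23.6 through 25.8 to 30.9 CPM. The states overlapped, and the log2 change of −0.23 ± 0.07 (SE) passed the test (edgeR adjusted p = 0.00488). With library size only the LPIN2 change was −2.13, where the median of all genes was −1.94. Among the 4 late pregnancy and 3 lactation libraries whose column names give lane 7, the LPIN2 change was −0.18 with an adjusted p of 0.11, and it was −0.29 in lane 8.

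Read as a ratio, LPIN2 over LPIN1 changed by −6.91 on the log2 scale of RPKM, from 4.37 ± 0.37 (SD, n = 9) to −2.54 ± 0.54 (SD, n = 6). Every late pregnancy library was between 3.82 and 4.99 and every lactation library between −3.36 and −1.78 (exact two-sided permutation p = 0.0002, the smallest possible here, adjusted over 4 ratios p = 0.0004). LPIN1 was 3.21% of the RPKM of the 3 lipins in late pregnancy, with a range of 1.99% to 4.55%, and 79.1% in lactation, with a range of 68.9% to 87.0%. LPIN2 fell from 65.4% to 14.1% of that sum and LPIN3 from 31.4% to 6.84%. The sum of the 3 in CPM per kb of exon was 16.9 ± 0.675 (SD, n = 9) and 71.2 ± 20.1 (SD, n = 6). LPIN1 alone had a coefficient of variation of 35.1% in lactation, with LM pool 2 lowest at 104.3 CPM and LM pool 1 highest at 299.1 CPM, both of 1 dam group.

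**Figure D2:**
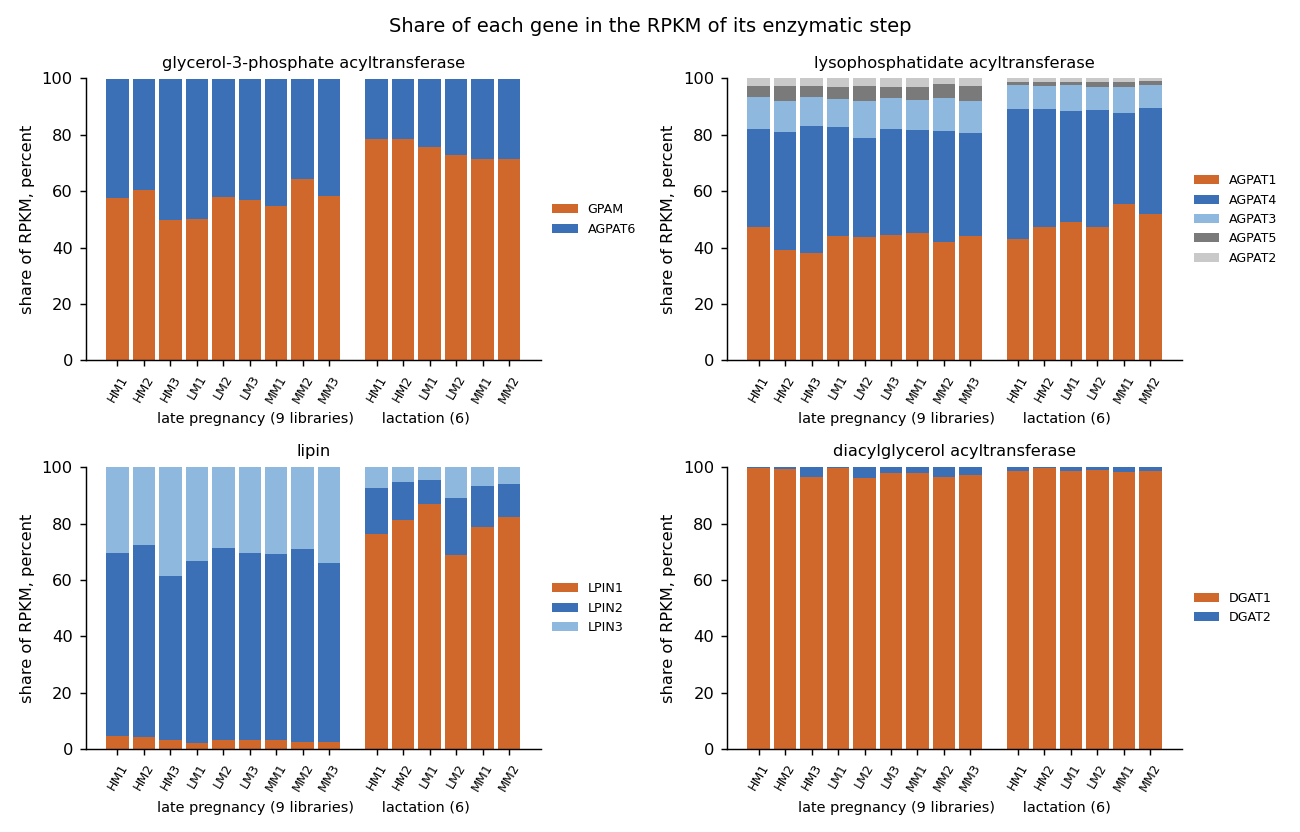
Share, in percent, of each gene in the RPKM of its enzymatic step, 1 stacked bar per library named by dam group and pool, with the 9 late pregnancy libraries left of the 6 of lactation. GPAM widens at the expense of AGPAT6, LPIN1 goes from 1.99% to 4.55% of the lipins to 68.9% to 87.0%, and DGAT1 fills nearly the whole of its step in both states; AGPAT9 and GPAT2 are in the sum of the first step but too small to draw.

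DGAT1, which joins the last fatty acid to diacylglycerol, was 2.13-fold higher with TMM scaling, and lower, at a log2 change of −0.81, when scaled by library size alone. It ranged from 7.05 through a median of 7.91 to 10.6 CPM in late pregnancy and from 16.7 through 17.3 to 19.6 CPM in lactation, without overlap. DGAT1 had a log2 change of 1.09 ± 0.09 (SE, edgeR adjusted p = 1.2e-09). The annotation gives DGAT1 only 822 bases of exon in 8 exons, and its levels per length use that figure. DGAT2, an unrelated enzyme with the same activity, had 1 to 27 reads before lambing and 1 to 11 after it. In CPM this was 0.0461 through 0.543 to 0.912 and 0.176 through 0.669 to 0.957, with full overlap, and the log2 change of 0.41 ± 0.50 (SE) did not pass (edgeR adjusted p = 0.48). With library size only DGAT2 was called lower, at −1.48 (edgeR adjusted p = 0.0062), so its call depends on the scale.

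DGAT1 held 97.9% ± 1.42 (SD, n = 9) and 98.8% ± 0.499 (SD, n = 6) of the RPKM of the pair. The log2 ratio of DGAT2 to DGAT1 was −5.99 ± 1.53 (SD, n = 9) and −6.37 ± 0.73 (SD, n = 6), a difference of −0.39 (exact two-sided permutation p = 0.578, adjusted over 4 ratios p = 0.77). The wide spread in late pregnancy comes from 3 libraries, HM pool 1, HM pool 2 and LM pool 1, with 1, 2 and 3 DGAT2 reads, while the others had 9 to 27.

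PNPLA3 had between 0 and 6 exon reads in each late pregnancy library and between 124 and 468 in each lactation library. In late pregnancy HM pools 1 to 3 had 6, 0 and 2 reads, LM pools 1 to 3 had 4, 0 and 1, and MM pools 1 to 3 had 5, 1 and 0, so 3 of the 9 libraries had none. In lactation the levels were 38.9 and 55.2 CPM in the HM pools, 35.0 and 23.6 CPM in the LM pools and 40.7 and 30.8 CPM in the MM pools. The mean was 0.0962 ± 0.102 CPM (SD, n = 9) and 37.4 ± 10.7 CPM (SD, n = 6), a ratio of 388.5 between means, and the fitted log2 change was 8.43. That change was the 4th largest of the 13345 genes tested, and the gene was picked for it. PNPLA3 is best known as a lipid droplet protein of the liver with lipase and transacylase activity.

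Reads of PNPLA3 crossed its annotated splice junctions and also lay outside its exons. Of its exon reads in lactation 65.8% spanned an exon-exon junction (1062 reads over the 6 libraries), which is a share like that of LPIN1 at 67.2%. Of all the reads within the gene in lactation 58.2% lay off the annotated exons, against 19.4% for LPIN1 and 0 to 17.0% for the other 8 members. Such a share was not particular to PNPLA3, since among the listed genes PNPLA4 had 78.1%, AGPAT4 74.2%, PNPLA7 53.9% and LCLAT1 50.8%. The annotated model has 8 exons with 1185 bases. Off-exon reads were 0 to 19 per library in late pregnancy and 141 to 712 in lactation, with a fitted log2 change of 8.04.

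The genes beside PNPLA3 on chromosome 3 did not follow it. In the coordinates of the deposited table, for which the submitters' processing notes name build Oar_v3.1 while the study's methods name a later version, PNPLA3 spans 218652470 to 218670653. Its relative PNPLA5 lies 32920 bases before it and had 0 reads in every library, as did the tRNA gene TRNAE-CUC at 23182 bases. SAMM50, a mitochondrial outer membrane assembly gene that starts 12444 bases after the end of PNPLA3, was at 28.1 ± 1.41 CPM (SD, n = 9) and 22.5 ± 3.06 CPM (SD, n = 6), with a log2 change of −0.32 ± 0.07 (SE, edgeR adjusted p = 5.8e-04). PARVB, further along, had at most 10 reads in any library and was not tested.

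The other patatin-like genes are given beside PNPLA3, which was itself picked for the size of its rise. Of 7 listed genes 5 were tested, of which 2 were called higher, 1 lower and 2 not called, with a median log2 change of 0.10, beside 33.1% higher and 35.2% lower among all genes tested. PNPLA7, a lysophospholipase, fell from 10.2 ± 1.33 CPM (SD, n = 9) to 3.59 ± 0.717 CPM (SD, n = 6), a log2 change of −1.48 ± 0.13 (SE, edgeR adjusted p = 4.8e-09). PNPLA8, a mitochondrial and peroxisomal phospholipase, rose by 0.40 ± 0.05 (SE, edgeR adjusted p = 7.2e-07), but all 5 genes tested were lower with library size only. On that scale the median of all genes was −1.94. PNPLA4 rose by 0.59 ± 0.24 (SE, edgeR adjusted p = 0.0347). Its edgeR call was lost without LM pool 1 of lactation (adjusted p = 0.11), LM pool 2 of lactation (0.051), MM pool 2 of lactation (0.15) or LM pool 2 of late pregnancy (0.055). PNPLA2, the main triacylglycerol lipase of adipocytes, was at 17.6 and 16.9 CPM, with a log2 change of −0.03 ± 0.13 (SE, edgeR adjusted p = 0.853). PNPLA6, a phospholipase known from neurons, had a log2 change of 0.10 ± 0.09 (SE, edgeR adjusted p = 0.328).

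Genes whose pattern was most like that of PNPLA3 were sought by Pearson's r of log2(CPM + 1) among 12265 other genes that averaged 1 CPM or more, as a description without a test. Over the 15 libraries the leading 5 were LOC101105822 (r = 0.997), SULF2 (0.996), CCNYL1 (0.996), ACACA (0.995) and MOV10 (0.995), and all of these were higher in lactation. ACACA is acetyl-CoA carboxylase, the enzyme that commits acetyl-CoA to fatty acid synthesis, and SULF2 is a sulfatase that edits heparan sulfate. Among the members LPIN1 ranked 18 (r = 0.993) and GPAM 45 (r = 0.991), while LPIN2 had r = −0.692. These values mostly measure the step between the states. After the mean of each state was taken off, the leading genes were LOC101120305 (r = 0.920), TGM3 (0.887), HNMT (0.877), PHLDB2 (0.875) and CAPN10 (0.866), none of them a member, and LPIN1 had r = 0.409. With PNPLA3 near 0 in late pregnancy, the latter values rest mostly on the 6 lactation libraries.

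Around the members, other genes of the pathway were called in both directions, about as often as genes in general. Of 27 further genes listed for the pathway, 22 are in the table and 19 were tested, of which 9 were called higher, 4 lower and 6 not called, where 68.4% of all genes tested were called, 33.1% higher and 35.2% lower. The median log2 change of these was 0.21, beside −0.03 for all genes, and with library size only 1 was called higher and 18 lower. On that scale the median of all genes was −1.94. GK, glycerol kinase, which makes glycerol 3-phosphate from free glycerol, rose from 12.6 ± 1.97 CPM (SD, n = 9) to 66.7 ± 7.78 CPM (SD, n = 6), a log2 change of 2.42 ± 0.10 (SE, edgeR adjusted p = 2.3e-14), and was the gene still higher with library size only. AGPAT4 rose by 1.01 ± 0.11 (SE, edgeR adjusted p = 5.6e-08) with TMM scaling but not with library size only. CDS1, which draws phosphatidate towards CDP-diacylglycerol and the phosphoinositides, fell from 19.0 ± 4.21 to 4.31 ± 1.10 CPM, a log2 change of −2.19 ± 0.18 (SE, edgeR adjusted p = 1.9e-09), whereas its paralogue CDS2 rose by 0.43 ± 0.06 (SE, edgeR adjusted p = 1.3e-06) with TMM scaling only. PPAP2C, a lipid phosphate phosphatase of the cell surface, fell from 20.5 ± 3.23 to 8.81 ± 2.54 CPM, a log2 change of −1.25 ± 0.15 (SE, edgeR adjusted p = 4.2e-07).

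Smaller rises with TMM scaling included BSCL2 (seipin, 0.93) and FITM2 (0.72), which act in lipid droplet formation, and AGPAT3 (0.61), DGKA (0.63), PPAP2A (0.36) and DGKZ (0.33), all as log2 changes and all called lower with library size only. Only 47.8% of the exon reads of PPAP2A were uniquely placed, so its value is uncertain. AGPAT5 fell by 0.72 and LPIN3 by 0.21 on the log2 scale. The call of LPIN3 (edgeR adjusted p = 0.0398) was lost without any of HM pools 1 and 3, LM pools 1 and 3 or MM pool 3 of late pregnancy, or HM pools 1 and 2, LM pool 1 or MM pool 2 of lactation, with adjusted p between 0.053 and 0.1. PPAP2B (−0.12) did not pass, but did without HM pool 3 of late pregnancy (−0.16, edgeR adjusted p = 0.023) and, like the others, was lower with library size only. AGPAT2, LCLAT1, MOGAT1, FITM1 and DGKE were not called, with log2 changes of −0.22 to 0.21, and GPAT2, AGPAT9 and DGAT2L6 had too few reads to test.

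**Figure D3:**
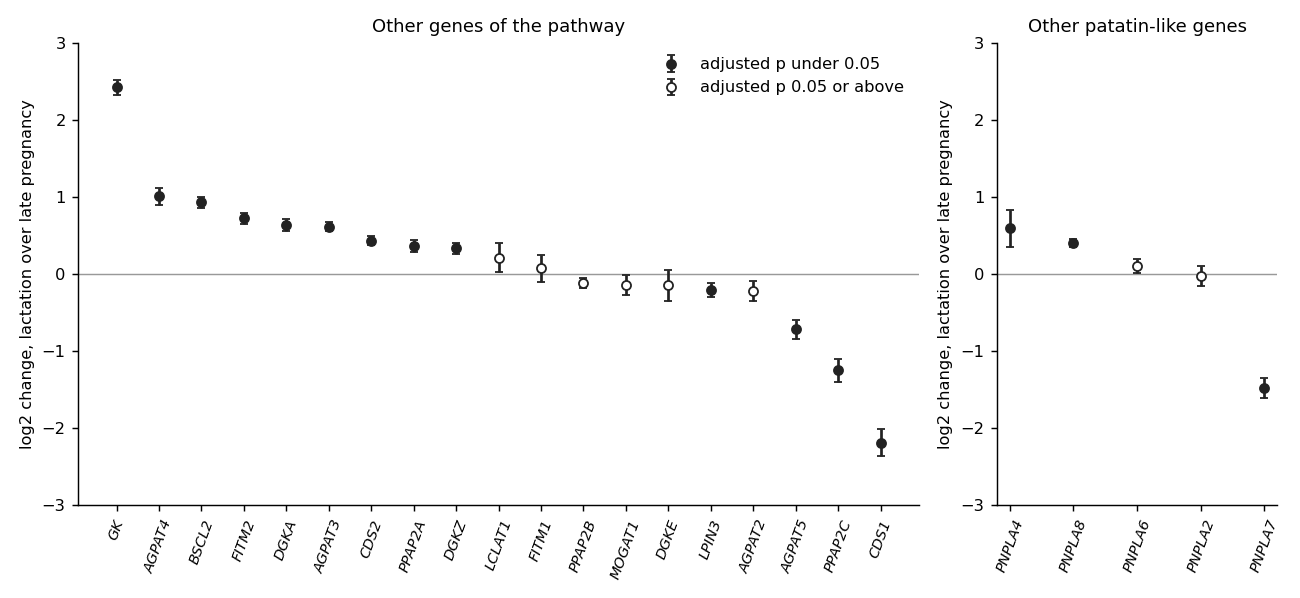
Log2 change (lactation over late pregnancy, TMM scaling) with its SE as a bar for the 19 further pathway genes tested and the 5 other patatin-like genes tested, with filled points for an adjusted p under 0.05. GK stands at 2.42 and CDS1 at −2.19, and PNPLA7 is the lowest of its family at −1.48; with library size only, GK would be the gene of these called higher.

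Reads within a gene but off its annotated exons, which come largely from unspliced transcripts where the annotation is complete, were fitted separately. Of the 9 members listed for function 8 were tested, and 5 were called higher, 0 lower (0 also at an unadjusted p under 0.05) and 3 not called, where 29.0% of the 10344 genes tested were higher, 29.0% lower and 58.0% called in all. The 3 not called by edgeR had log2 changes of 0.36 for GPD1L, −0.22 for AGPAT1 and 0.19 for LPIN2. LPIN1 rose by 6.41 ± 0.23 (SE, edgeR adjusted p = 6.1e-17), close to its change on exons. GPAM rose by 2.34 ± 0.11, AGPAT6 by 1.17 ± 0.11, DGAT1 by 1.42 ± 0.25 and GPD1 by 0.55 ± 0.11 (SE, edgeR adjusted p at most 1.5e-04), although GPD1 was not higher, at −0.09, with library size only. AGPAT1 had 1 to 24 such reads in any library and DGAT1 4 to 24, so those values rest on few reads, and DGAT2 was not tested. With library size only 2 members, AGPAT1 and LPIN2, were called lower. That scale put the median off-exon change of all genes tested at −0.63. Whether exon and off-exon changes of a gene differ was not tested, and the pathway list gave 4 higher and 5 lower of 16 tested off exons.

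**Figure D4:**
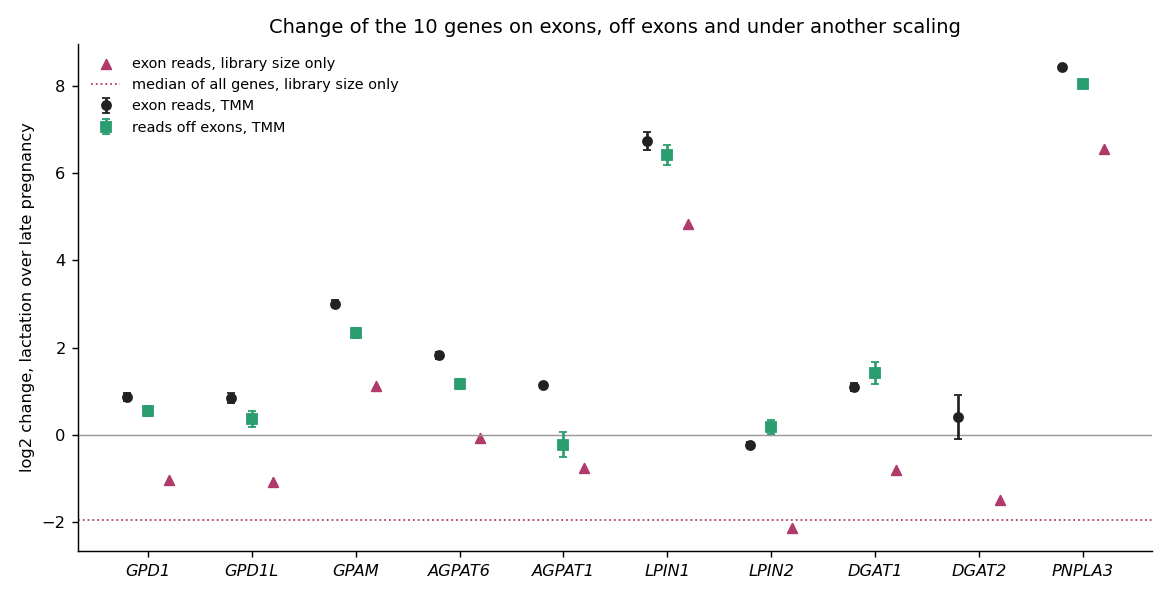
Log2 change of the 10 genes between the states on exon reads (black) and off-exon reads (green), both with TMM scaling and SE bars, and on exon reads with library size only (triangles), with a dotted line at −1.94, the median of all genes on that scale. PNPLA3 has no error bar because it was picked for this change, and GPD1, GPD1L, AGPAT6, AGPAT1, DGAT1 and DGAT2 lie above 0 with TMM and below 0 with library size only.

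Ordered by level per length (CPM per kb of exon), GPAM led in both states, at 112.3 ± 17.1 (SD, n = 9) and 904.9 ± 88.6 (SD, n = 6), followed by AGPAT6 at 85.3 ± 11.7 and 301.9 ± 25.1 and AGPAT1 at 40.2 ± 2.47 and 89.3 ± 3.86. In late pregnancy the libraries of GPAM and AGPAT6 overlapped and then came GPD1 at 26.6 ± 2.47, LPIN2 at 11.02 ± 0.681, GPD1L at 10.1 ± 1.71 and DGAT1 at 9.97 ± 1.33, of which the last 3 were not separated. LPIN1 at 0.545 ± 0.159, DGAT2 at 0.204 ± 0.132 and PNPLA3 at 0.0812 ± 0.0863 formed the low end, with each overlapping the next. In lactation LPIN1 stood at 57.3 ± 20.1, overlapping both AGPAT1 above it and GPD1 below it at 48.9 ± 11.4. PNPLA3 followed at 31.5 ± 9.01, overlapping GPD1 and DGAT1 (21.4 ± 1.30), and then came GPD1L at 18.01 ± 2.64 (overlapping DGAT1), LPIN2 at 9.39 ± 0.998 and DGAT2 at 0.257 ± 0.106. The places of PNPLA3 and DGAT1 are uncertain, since levels per length use annotated exons. Of the PNPLA3 reads in lactation 58.2% lay off those exons, and DGAT1 has only 822 bases of exon.

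Feeding of the ewes' dams was not followed by a called change in any member. By the column names all LM libraries were in lane 8. In late pregnancy, HM and MM pools 1 and 2 were in lane 7 and their pools 3 in lane 8. Feeding and lane therefore cannot be fully told apart. Among the 9 late pregnancy libraries 9 members were tested (PNPLA3 had too few reads) and 0 were called by the 3-group F-test of edgeR, as was the case for 0% of the 13747 genes. Unadjusted p was under 0.05 for 1 member and 571 genes, and DESeq2 called 0 members and 20 genes. The member was AGPAT6, at 253.4 ± 31.9 CPM in HM, 202.2 ± 12.2 in MM and 219.9 ± 24.9 in LM pools (SD, n = 3 each, edgeR adjusted p = 1). LPIN1 was at 2.31 ± 0.533 CPM in HM, 1.54 ± 0.227 in MM and 1.56 ± 0.435 in LM pools (edgeR adjusted p = 1).

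The interaction test of dam group with state called 0 of the 9 members listed for function in edgeR and DESeq2, beside 0% of 13345 genes in edgeR (876 at an unadjusted p under 0.05) and 19 genes in DESeq2. AGPAT6 again had the lowest p of the members (unadjusted p = 0.00666, edgeR adjusted p = 0.735). The log2 ratio of its mean CPM in lactation to that in late pregnancy was 1.5 in HM, 2.08 in MM and 1.90 in LM pools, and in lactation both HM pools (707.0 and 722.6 CPM) were below the other 4 (809.2 to 856.3 CPM). Both HM lactation pools were in lane 7 and both LM ones in lane 8, with MM pool 1 in lane 7 and MM pool 2 in lane 8. Feeding and lane were not tested apart. For PNPLA3, given without a test, the same ratio was 8.38, 8.70 and 8.91. Simulated 2-fold differences in this interaction were recovered in only 34.7% of genes, against 90.9% for the states, so a p above the threshold here does not show that the groups were alike.

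Within a state, no relation of a member to the adipocyte marker level, most of which is FABP4, passed the threshold. With 9 or 6 libraries and adjustment over 20 relations, only a strong relation could pass. A relation that did not pass is therefore not shown to be absent. Of 20 relations (10 members in each state) 0 passed after adjustment, and 1 by Pearson's r and 1 by Spearman's rho had an unadjusted exact permutation p under 0.05. The strongest was GPD1 in late pregnancy, with Pearson's r = 0.78 (exact permutation p = 0.0135, adjusted p = 0.270) and Spearman's rho = 0.55 (exact permutation p = 0.133, adjusted p = 0.699) over 9 libraries. Without the 2 libraries farthest from the median marker level r was 0.46, so this relation rests on those libraries. DGAT1 in late pregnancy had r = 0.65 (exact permutation p = 0.0574, adjusted p = 0.574) and rho = 0.72 (exact permutation p = 0.0369, adjusted p = 0.699), and r was 0.15 without those libraries. For LPIN1 in lactation r was 0.57 (exact permutation p = 0.239, adjusted p = 0.636) and rho 0.66 (exact permutation p = 0.175, adjusted p = 0.699) over 6 libraries, and r was 0.79 without the 2 farthest. GPAM had r = 0.29 in late pregnancy and 0.25 in lactation, and 0.61 and 0.63 without the 2 farthest. For PNPLA3 in lactation r was 0.43 (exact permutation p = 0.422, adjusted p = 0.636) and rho 0.20 (exact permutation p = 0.714, adjusted p = 0.783), with r = 0.20 without the 2 farthest.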

How the data were processed

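RNA-seq of 15 pools of ovine mammary RNA (9 late pregnancy, 6 lactation) was used. The authors mapped paired Hi-Seq reads to the sheep genome with CLC Genomics Workbench and deposited, per gene and library, counts of reads on exons, of uniquely placed exon reads, of reads on the whole gene and of reads across exon-exon junctions, none of them normalized. The deposited RPKM values were computed by the authors as exon reads per kilobase of exon and per 1000000 reads on genes, and recomputing them from the counts gave the same values to within 3.5e-07 of their size. A further deposited column holds the authors' RPKM after quantile normalization over the libraries. The table also has columns with the authors' own comparison of the states (group means, fold changes and p-values of the Baggerly test), which were not used. Late pregnancy libraries had 6471237 to 16898986 exon reads and lactation libraries 9014506 to 24001031. Precision is given as the spread over libraries, which are pools of ewes. No library was a copy of another.

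Counts (whole-gene reads for features without an annotated transcript) were fitted over all genes with edgeR 4.0.16 in R 4.3.3, with filterByExpr, TMM scaling and the quasi-likelihood F-test without covariates. P-values were adjusted by Benjamini-Hochberg over all genes tested, and called means an adjusted p below 0.05. CPM use the TMM library sizes, and CPM per kb divides them by exon length. SE of a log2 change is its size divided by the root of F. Off-exon reads are reads on the gene less those on exons. Log2 ratios of RPKM (0.01 added to each) were compared by exact permutation of the 9 and 6 libraries. Dam groups were compared by a 3-group F-test in late pregnancy and by the interaction with state over the 15 libraries. DESeq2 1.42.0 and limma 3.58.1 were alternatives. Permutations and summaries used scipy 1.17.1 and pandas 2.3.3 (Python 3.11.15, numpy 2.4.6). The procedure was tested on simulated data, in which edgeR recovered 90.9% of 2-fold changes for the states, 85.0% for off-exon reads, 79.8% for dam groups in late pregnancy and 34.7% for the interaction. In these simulations a small part of the genes was changed, up and down equally often. They therefore do not test the scaling between the states, on which the directions of members rest.

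The members and all gene lists were chosen with earlier results of these data known. Named genes are the 10 members, listed genes called with a log2 change beyond 1 in size, the 5 genes most like PNPLA3 by each measure and its 2 nearest features on each side; other listed genes are named to account for the lists. Whether same-numbered pools of a dam group hold the same ewes is not known. Only 2 of 6 such pairs had deviations from the state means that correlated above 0.1. With pooled RNA this cannot show whether ewes were shared. The main fit has no block, and a fit with the replicate block was an alternative. Promoter and protein sequences were not used here.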

Additional observations from a re-analysis of the deposited data

Results flagged for a closer look

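DGAT1 in lactation had 1 library apart from the others: LM pool 2 stood at 19.6 CPM and the next library at 17.6 CPM, a gap that on the log2(CPM + 1) scale was 0.663 of the range of the 6 libraries, where 0.625 marks the limit of Dixon's test. It was 1 of 28 groups of libraries tested in this way (the 10 genes and 4 ratios in each state), and chance alone passes about 1 group in 20. Without any 1 library the log2 change of DGAT1 was 1.06 to 1.15.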

How the results depend on the processing

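With library size only as the scale, directions turned for GPD1 (−1.03), GPD1L (−1.07), AGPAT1 (−0.75), DGAT1 (−0.81) and DGAT2 (−1.48). AGPAT6 was then near 0 (−0.07, edgeR adjusted p = 0.32). Members called went to 2 higher and 6 lower, the pathway list to 1 higher and 18 lower, the patatin-like list to 0 higher and 5 lower, and members called lower off exons to 2. That scale moves the median of all genes from −0.03 to −1.94. Shares of all genes called on it are not given here, so these counts stand without a background. Within lane 7, where 8 members were tested, 0 were called lower, since LPIN2 missed the threshold. For the patatin-like list 1 gene in place of 2 was called higher with upper quartile scaling, with no filter, with at least 10 reads in every library and in the fit with the replicate block, and 1 to 2 when single libraries were left out. The replicate block gave 7 members higher and 1 lower, and changed no other call of a member. Same-numbered pools correlated by −0.045 to 0.12 in their deviations from the state means, and 1 of 6 lactation libraries correlated best with the pool of its own number.

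Members called stayed at 7 higher and 1 lower when each library was left out, and under DESeq2, limma, upper quartile scaling, uniquely placed reads and without the milk protein genes. Leaving out single libraries gave log2 changes of 6.57 to 6.87 for LPIN1 and 2.98 to 3.06 for GPAM, and DGAT2 then failed the filter in 6 late pregnancy cases. The ratio differences of LPIN2 to LPIN1 and GPAM to AGPAT6 kept their call with uniquely placed reads, quantile-normalized RPKM, a pseudocount of 0.1 and each library left out, and had the same sign within each lane, where no test was made, with ranges of −7.06 to −6.74 and 1.13 to 1.25 when single libraries were left out. Counts of 0 for dam groups and the adipocyte level stayed at 0 under the alternatives run. DGAT2 in both states and PNPLA3 in late pregnancy rest on few reads.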

Other observations

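On the deposited RPKM scale, which counts the milk protein reads in the total, the members sort differently. AGPAT6 had an RPKM of 122.7 ± 11.2 (SD, n = 9) in late pregnancy and 126.7 ± 12.1 (SD, n = 6) in lactation, and so held nearly the same part of all reads on genes in both states. GPAM went from 162.4 ± 25.8 to 379.6 ± 40.4 RPKM, LPIN1 from 0.784 ± 0.209 to 23.9 ± 7.99 and PNPLA3 from 0.113 ± 0.118 to 13.2 ± 3.80. GPD1 went from 38.4 ± 2.84 to 20.5 ± 5.08 RPKM, AGPAT1 from 58.1 ± 2.97 to 37.5 ± 2.35, DGAT1 from 14.4 ± 1.56 to 8.96 ± 0.666 and LPIN2 from 15.9 ± 1.30 to 3.95 ± 0.534. These are values of the share of reads, given without a test.

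The 6 lactation libraries ranked differently for different members. LM pool 2 had the lowest LPIN1 (104.3 CPM) and PNPLA3 (23.6 CPM) and the highest DGAT1 (19.6 CPM). HM pool 1 and LM pool 2 had the highest GPD1 (117.1 and 110.6 CPM) and the lowest LPIN1 (139.1 and 104.3 CPM). HM pool 2 had the highest PNPLA3 (55.2 CPM) and the lowest AGPAT6 (707.0 CPM) and DGAT1 (16.7 CPM). These libraries were picked after their values were seen.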
